A study of Schizosaccharomyces pombe with 12 samples.

Results

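The genes described here encode subunits and assembly factors of the mitochondrial machinery that oxidizes succinate, passes electrons to oxygen and makes ATP in the fission yeast *S. pombe*. They were the probe sets whose gene symbol begins with cox, qcr, atp or sdh followed by a number, either in the array annotation or in the gene table that accompanies the study. The rule found 41 genes of the 4875 on the array. It used names alone and no expression value. The gene table was held here only in part, so members named there alone may have been missed. *atp8* and *atp9* were found through that table alone, and other respiratory genes of mitochondrial DNA were not analysed here. They fall into succinate dehydrogenase (4 genes), the bc1 complex (7), cytochrome oxidase (7 subunits and 4 assembly factors) and the ATP synthase (5 subunits of the F1 head, 9 of the membrane part and stalk, and 5 assembly factors). Of these genes, 39 are nuclear, and *atp8* and *atp9* lie on mitochondrial DNA.

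Succinate dehydrogenase takes electrons from succinate, an intermediate of the tricarboxylic acid (TCA) cycle, and hands them to ubiquinone. The bc1 complex then moves electrons from ubiquinol to cytochrome c, and cytochrome oxidase passes them on to oxygen, while the protons pumped on the way drive the ATP synthase. *S. pombe* has no proton-pumping NADH dehydrogenase of the kind found in mammals, and in glucose medium it ferments as well as respires. Most subunits of these complexes are made from nuclear genes and imported, but a few of the most hydrophobic ones are still made inside the mitochondrion.

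The study asked how loss of serine 2 phosphorylation on the carboxy terminal domain (CTD) of RNA polymerase II affects transcription, with and without a drug that perturbs the actin cytoskeleton. The *rpb1-12XS2ACTD* strain makes Rpb1, the largest polymerase subunit, with 12 heptad repeats in which alanine replaces serine 2. The *rpb1-12XCTD* strain carries 12 repeats of the normal sequence, so both strains have a CTD shorter than that of wild-type cells, and each genotype is represented by a single strain. Cells growing in rich YES medium received 0.5 µM latrunculin A (LatA), which sequesters actin monomers, or its solvent DMSO for 3 h. There were 3 arrays in each of 4 groups: *rpb1-12XS2ACTD* with LatA, *rpb1-12XCTD* with LatA, *rpb1-12XS2ACTD* with DMSO and *rpb1-12XCTD* with DMSO. Whole cultures were measured, so fewer cells of a kind and less RNA per cell cannot be told apart.

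All values are log2 and each gene is centred on its own median over the 12 arrays. A value of 0 is thus the gene's middle level, and levels of different genes cannot be set against each other. A gene was called when its adjusted p from limma, over all 4875 genes, was under 0.05 and its change was over 1.5 fold. The DMSO arrays of *rpb1-12XCTD* were the most variable: the median SD between replicates over all genes was 0.195 there, against 0.078, 0.068 and 0.097 in *rpb1-12XS2ACTD* with LatA, *rpb1-12XCTD* with LatA and *rpb1-12XS2ACTD* with DMSO. Over the 41 genes it was 0.146 in *rpb1-12XS2ACTD* with LatA, 0.228 in *rpb1-12XCTD* with LatA, 0.132 in *rpb1-12XS2ACTD* with DMSO and 0.213 in *rpb1-12XCTD* with DMSO. The respiratory genes therefore varied more than the typical gene among replicates, most of all in *rpb1-12XCTD* with LatA.

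**Figure D1:**
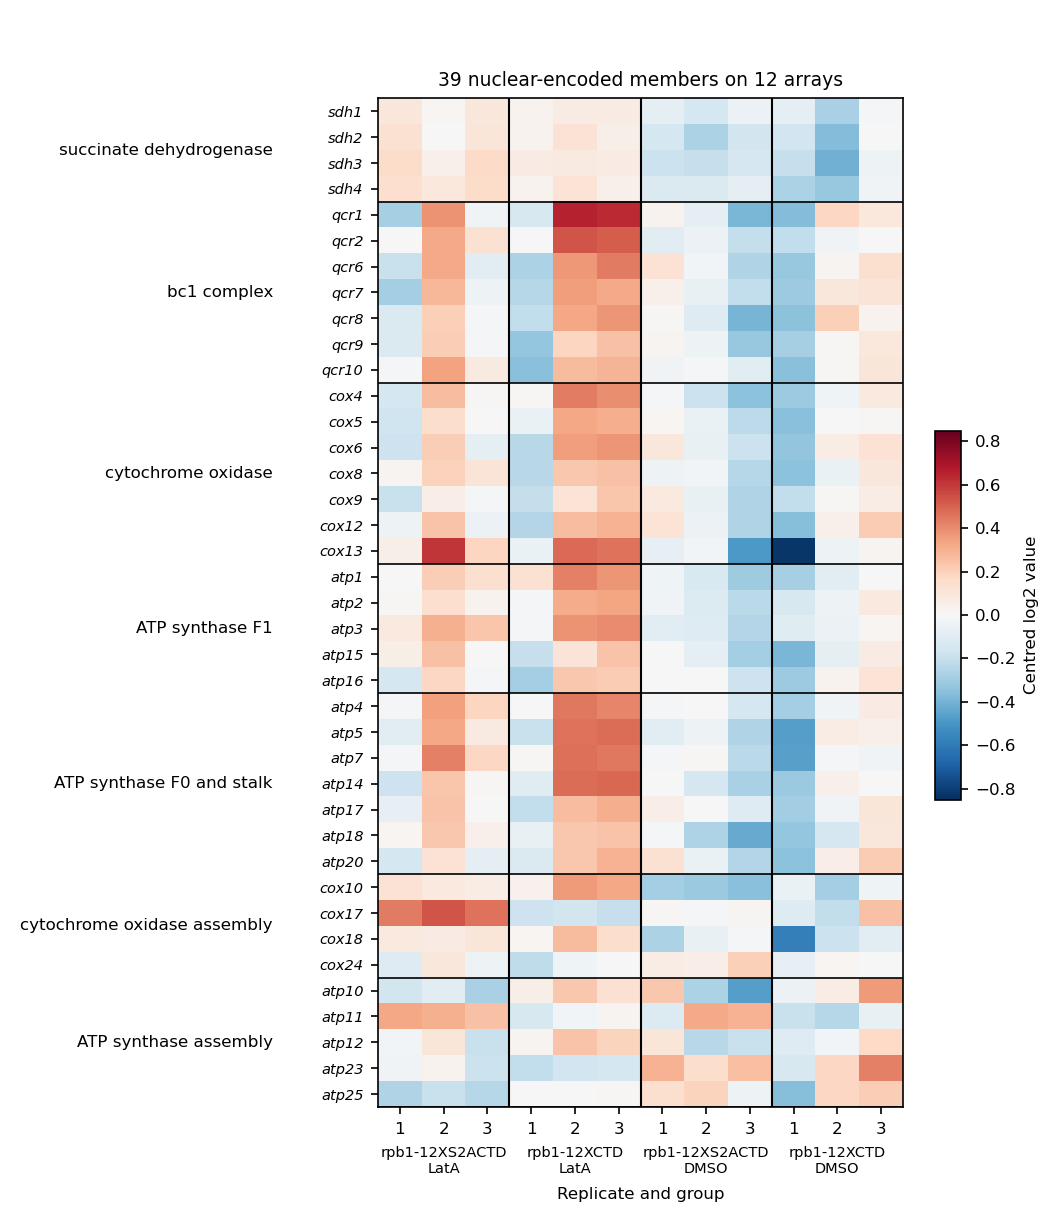
Centred log2 values of the 39 nuclear genes (rows, by complex) on the 12 arrays (columns, by group and replicate), coloured on a linear scale from blue (low) to red (high). The bc1 complex, cytochrome oxidase and ATP synthase subunits change together from array to array, the succinate dehydrogenase genes change mainly with LatA, and *cox17* is high on the 3 arrays of *rpb1-12XS2ACTD* with LatA.

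Across the 41 genes only *cox17* was called, and only in the comparison of the strains under LatA. That was 1 of 41 members called in a comparison in which 2.89% of all genes were called. No member was called between the strains with DMSO (0.862% of all genes), for the LatA effect in *rpb1-12XS2ACTD* (11.5%) or in *rpb1-12XCTD* (13.2%), or for the difference between these 2 LatA effects, the interaction (0.0205%). At an unadjusted p under 0.05 with the same fold threshold, 1 member passed between the strains under LatA (4.70% of all genes) and 1 in the interaction (2.75%), *cox17* both times. At that level 0 members passed between the strains with DMSO (3.26% of all genes) or for LatA in *rpb1-12XS2ACTD* (12.0%) or *rpb1-12XCTD* (13.5%). Smaller changes passed without the fold threshold. With LatA, 6 members in *rpb1-12XS2ACTD* and 7 in *rpb1-12XCTD* rose with an adjusted p under 0.05 from limma at any fold, where 17.4% and 27.3% of all genes rose. Both shares of members were below those of all genes. By the same rule 0 members fell in either strain, where 16.0% of all genes fell in *rpb1-12XS2ACTD* and 8.33% in *rpb1-12XCTD*.

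**Figure D2:**
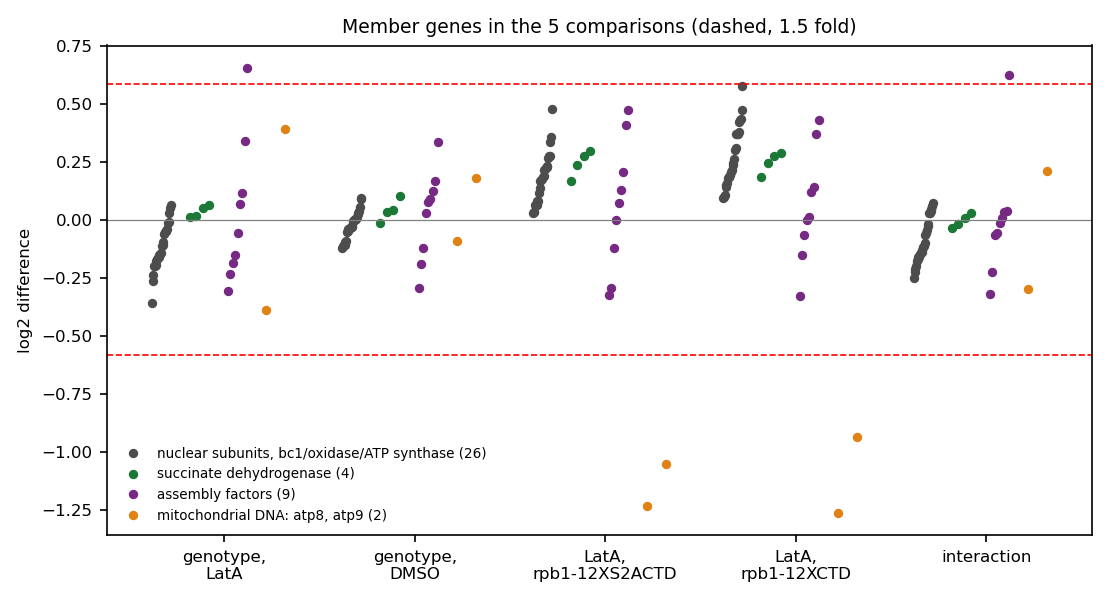
Log2 differences (y axis) of the 41 genes in the 5 comparisons (x axis), each dot a gene, coloured by part of the machinery; dashed lines mark 1.5 fold in either direction. The *cox17* dot stands above the line between the strains under LatA and in the interaction, and the *atp8* and *atp9* dots lie far below it for both LatA effects without passing the test.

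*cox17* encodes a small copper chaperone that carries copper to the factors that load it into cytochrome oxidase. Its values were 0.44, 0.54 and 0.46 on the arrays of *rpb1-12XS2ACTD* with LatA, and -0.18, -0.16 and -0.19 in *rpb1-12XCTD* with LatA. With DMSO they were 0.01, -0.01 and 0.03 in *rpb1-12XS2ACTD*, and -0.11, -0.21 and 0.25 in *rpb1-12XCTD*. Every array of *rpb1-12XS2ACTD* with LatA was therefore above all 9 others, and the LatA groups of the strains did not overlap. Under LatA the gene was 1.57-fold higher in *rpb1-12XS2ACTD* than in *rpb1-12XCTD*, a log2 difference of 0.65 with a 95% interval of 0.43 to 0.88 and an adjusted p of 0.00699 from limma. With DMSO the strains differed by 0.03, with an interval of -0.19 to 0.25.

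Within *rpb1-12XS2ACTD*, *cox17* was 1.39-fold higher with LatA than with DMSO (log2 difference 0.47, adjusted p from limma 0.00542), below the fold threshold. Within *rpb1-12XCTD* the LatA difference was -0.15, with an interval of -0.38 to 0.07. The difference between those LatA effects was 0.62, with a standard error of 0.14, and its adjusted p from limma was 0.218. The strain difference in the LatA response of *cox17* was therefore not called, although its unadjusted interval, 0.31 to 0.94, lay above 0. When the arrays were quantile normalized it was 0.82 with an adjusted p from limma of 0.00524, and without DMSO replicate 3 of *rpb1-12XCTD* it was 0.49 with 0.0417, under the fold threshold.

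**Figure D3:**
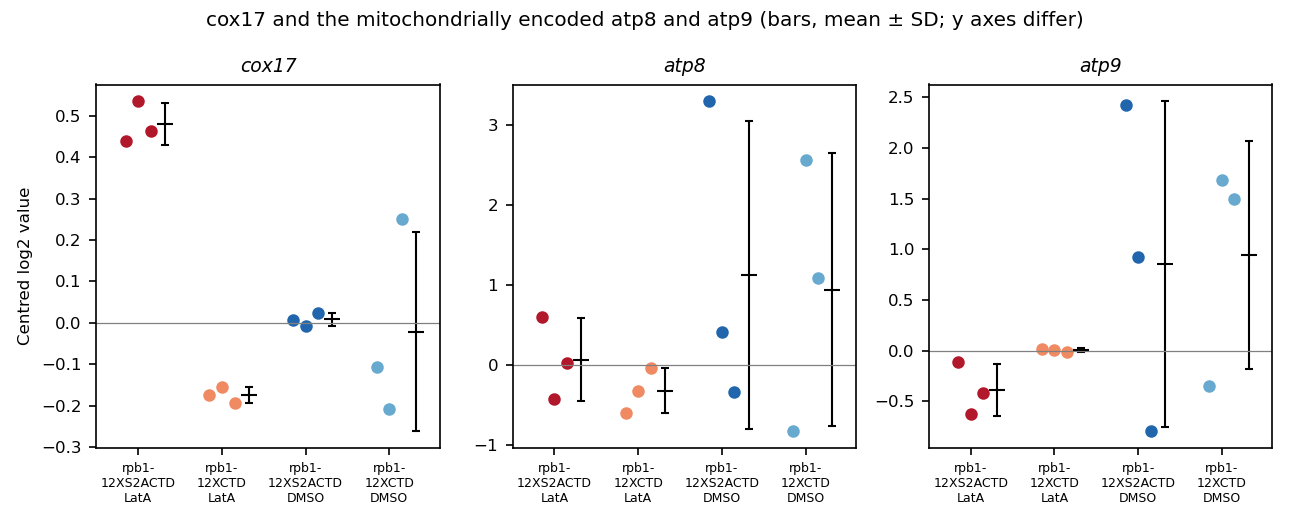
Centred log2 values (y axis, with a different range in each panel) of *cox17*, *atp8* and *atp9* on each array (dots) by group (x axis), with the mean and SD of the 3 arrays beside them. *cox17* reaches 0.44 to 0.54 in *rpb1-12XS2ACTD* with LatA, and *atp8* and *atp9* spread over more than 2 log2 units within each DMSO group.

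The 4 succinate dehydrogenase genes were modestly higher with LatA in both strains. *sdh1* and *sdh2* encode the flavoprotein and the iron-sulphur subunit, and *sdh3* and *sdh4* the membrane anchor; *sdh4* is listed by RefSeq under the symbol *tim18*, with *sdh4* as a synonym. *sdh3* measured 0.15, 0.05 and 0.16 in *rpb1-12XS2ACTD* with LatA, against -0.18, -0.20 and -0.14 with DMSO. In *rpb1-12XCTD* it measured 0.07, 0.08 and 0.07 with LatA, against -0.19, -0.41 and -0.05 with DMSO. All LatA arrays were above all DMSO arrays of the same strain, and this held for each of the 4 genes in each strain, where 27.7% of all genes in *rpb1-12XS2ACTD* and 32.3% in *rpb1-12XCTD* stood apart in that direction. The 4 genes moved together, with a median pairwise correlation of 0.964 over the 12 arrays, so they are not 4 separate observations.

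The LatA differences of these genes had medians of 0.25 in *rpb1-12XS2ACTD* and 0.26 in *rpb1-12XCTD*, both about 1.19-fold to 1.20-fold. In *rpb1-12XS2ACTD* they ran from 0.17 for *sdh1* to 0.29 for *sdh3*, and *sdh2*, *sdh3* and *sdh4* had adjusted p from limma of 0.0393, 0.0238 and 0.0402. In *rpb1-12XCTD* they ran from 0.18 for *sdh1* to 0.29 for *sdh3*, and *sdh3* and *sdh4* had adjusted p from limma of 0.0243 and 0.0198. *sdh1* missed the threshold in both strains, with adjusted p from limma of 0.113 in *rpb1-12XS2ACTD* and 0.0794 in *rpb1-12XCTD*. Between the strains under LatA the 4 genes differed by 0.01 to 0.06, and no interval of these reached beyond -0.19 or 0.24, so a strain difference of 1.5 fold lay outside all 4. In the main fit, which shares its estimate of each gene's spread over the 4 groups, these small changes sat close to the threshold. With the arrays of *rpb1-12XS2ACTD* fitted alone, *sdh2*, *sdh3* and *sdh4* stayed past the threshold in that strain, and they did so by the methods' test. In *rpb1-12XS2ACTD*, *sdh3* was past it in 18 of 22 alternatives, *sdh4* in 12 and *sdh2* in 11, with adjusted p from limma of up to 0.0832, 0.118 and 0.130. There *sdh3* missed it without LatA replicate 1 or 3 or DMSO replicate 1 or 2, and *sdh2* and *sdh4* missed it without any single array of either treatment of that strain or any LatA array of *rpb1-12XCTD*. In *rpb1-12XCTD*, *sdh3* was past it in 15 of 22 and *sdh4* in 16, with adjusted p of up to 0.165 and 0.145 by the methods' test. There no gene of the 4 passed without DMSO replicate 2, where their median was 0.17, or without LatA replicate 2 or 3, where it was 0.23 and 0.27. *sdh3* also missed the threshold without LatA replicate 1 and after quantile normalization, and *sdh4* without the first DMSO array of each strain. Both *sdh3* and *sdh4* missed it with the arrays of *rpb1-12XCTD* fitted alone and by the methods' test. After median centring or quantile normalization the median in *rpb1-12XCTD* was 0.16 and 0.13.

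**Figure D4:**
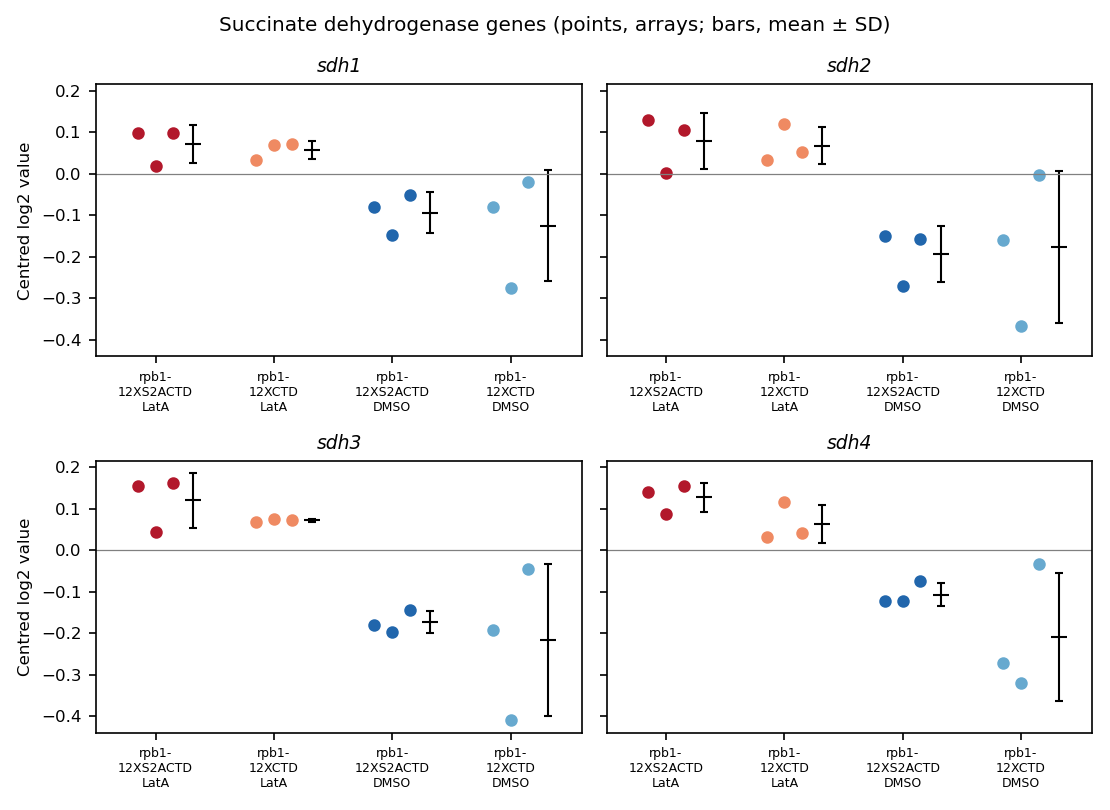
Centred log2 values (y axis) of the 4 succinate dehydrogenase genes on each array (dots) by group (x axis), with the mean and SD of the 3 arrays of each group. In both strains the LatA arrays of each gene lie above its DMSO arrays, by 0.17 to 0.29 on average in *rpb1-12XS2ACTD* and by 0.18 to 0.29 in *rpb1-12XCTD*.

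The 26 nuclear subunits of the bc1 complex, cytochrome oxidase and ATP synthase moved as a block. They were set apart by the complexes they belong to, but after their values had been seen, so what follows is a description. The median correlation between pairs of them over the 12 arrays was 0.885, and it was 0.194 over all pairs of genes on the array. With the group means removed it was 0.938, against 0.339 for all pairs, and with each array also centred on its median it was 0.929, against 0.015. The block thus varied together between replicates of 1 group at least as closely as over all 12 arrays. On each array all genes share the same RNA extract and hybridization, and no p is given.

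The median of the 26 subunits was -0.08, 0.24 and 0.01 on the arrays of *rpb1-12XS2ACTD* with LatA, and -0.17, 0.34 and 0.36 in *rpb1-12XCTD* with LatA. With DMSO it was 0.00, -0.06 and -0.25 in *rpb1-12XS2ACTD*, and -0.32, 0.01 and 0.08 in *rpb1-12XCTD*. The groups overlapped in every comparison, with replicate 1 the lowest of its group in both LatA groups and in *rpb1-12XCTD* with DMSO. The median over all 4875 genes stayed between -0.03 and 0.04 on the 6 LatA arrays, where the subunit median ran from -0.17 to 0.36.

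**Figure D5:**
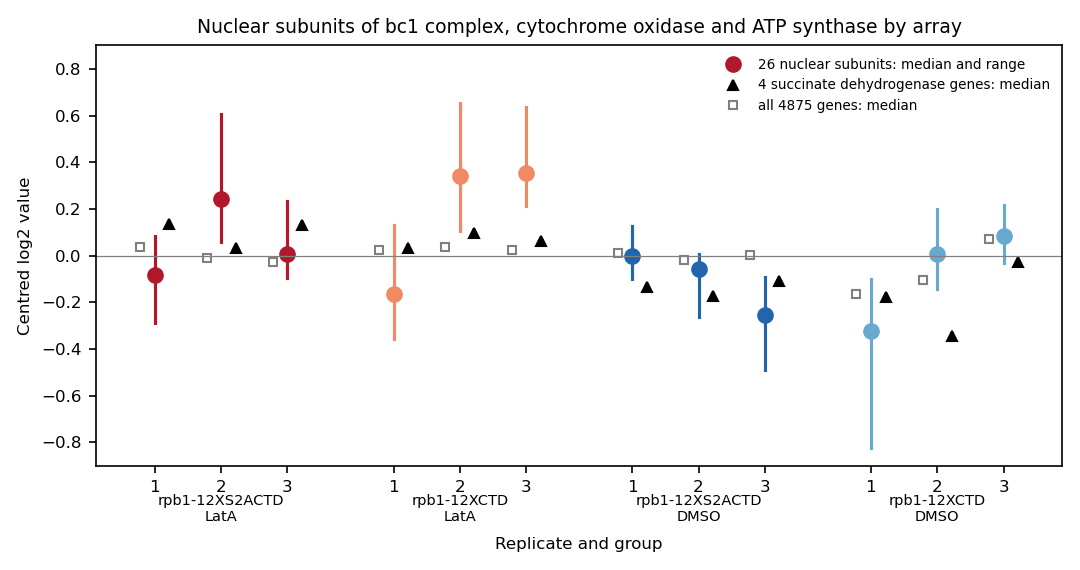
Centred log2 values (y axis) on the 12 arrays (x axis, by group and replicate): the median (circle) and full range (line) of the 26 nuclear subunits, the median of the 4 succinate dehydrogenase genes (triangle) and the median of all 4875 genes (square). The subunit median runs from -0.17 to 0.36 on the LatA arrays of *rpb1-12XCTD*, while the succinate dehydrogenase median stays near 0.

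Succinate dehydrogenase did not share this array-to-array pattern. The median correlation of its genes with the 26 subunits was 0.374 over the 12 arrays and -0.028 with the group means removed. The group means held a median of 73.2% of the variance of the succinate dehydrogenase genes, 32.1% of that of the 26 subunits and 62.6% over all genes. The other respiratory subunits thus differed less between groups, relative to their spread within groups, than a typical gene did.

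With LatA all 26 subunits had a difference above 0 in each strain, where 48.6% of all genes did in *rpb1-12XS2ACTD* and 65.5% in *rpb1-12XCTD*. Their medians were 0.18 in *rpb1-12XS2ACTD* and 0.24 in *rpb1-12XCTD*, beside -0.01 and 0.10 over all genes. Since the 26 move together, their shared sign counts as a single observation. It also rested on single arrays: 18 of 26 were above 0 in *rpb1-12XS2ACTD* without LatA replicate 2 and 21 without DMSO replicate 3, and 22 of 26 in *rpb1-12XCTD* without DMSO replicate 1 and 25 without LatA replicate 3. The median in *rpb1-12XS2ACTD* was 0.08 without LatA replicate 2 and 0.12 without DMSO replicate 3. In *rpb1-12XCTD* it was 0.13 without DMSO replicate 1 and 0.14 without LatA replicate 3, and 0.40 without LatA replicate 1. Median centring of the arrays gave 0.14 in that strain, and quantile normalization 0.11 with 22 of 26 above 0.

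Among the subunits, *cox13*, a nuclear subunit of cytochrome oxidase, had the largest LatA difference in both strains. It measured 0.05, 0.61 and 0.18 in *rpb1-12XS2ACTD* with LatA, against -0.07, -0.02 and -0.49 with DMSO. In *rpb1-12XCTD* it measured -0.06, 0.48 and 0.46 with LatA, against -0.83, -0.04 and 0.02 with DMSO. The groups did not overlap in *rpb1-12XS2ACTD* but did in *rpb1-12XCTD*. The differences were 0.47 (1.39 fold, adjusted p from limma 0.158) in *rpb1-12XS2ACTD* and 0.57 (1.49 fold, 0.0885) in *rpb1-12XCTD*, and neither passed.

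Of the 26 subunits, *atp3*, the gamma subunit that turns within the F1 head, rose with LatA in *rpb1-12XS2ACTD* by 0.36 (1.28 fold, adjusted p from limma 0.0298). In *rpb1-12XCTD*, *qcr2*, a core protein of the bc1 complex, rose by 0.43 (1.35 fold, 0.0328). In the same strain *atp1*, the alpha subunit of F1, rose by 0.44 (1.35 fold, 0.0103), and *atp7*, a stalk subunit, by 0.47 (1.39 fold, 0.0430). All were under 1.5 fold. *atp1* was past the threshold in 20 of 22 alternatives, missing it without LatA replicate 2 of *rpb1-12XCTD* and by the methods' test, while *atp3* was in 17, *qcr2* in 12 and *atp7* in 11. *atp3* missed it without any DMSO array or without LatA replicate 2 or 3 of *rpb1-12XS2ACTD*. *qcr2* and *atp7* missed it without DMSO replicate 1 or LatA replicate 2 or 3 of *rpb1-12XCTD*. *qcr2* also missed it without DMSO replicate 2 of that strain, and *atp7* without DMSO replicate 2 or LatA replicate 3 of *rpb1-12XS2ACTD*. Both *qcr2* and *atp7* missed it after median centring or quantile normalization and with array weights. The same held with the arrays of *rpb1-12XCTD* fitted alone, by the methods' test and without the first DMSO array of each strain. Without LatA replicate 1 of *rpb1-12XCTD*, 5 subunits were called in that strain: *atp5*, *atp7*, *cox13*, *qcr1* and *qcr2*, at 0.59 to 0.75. On all arrays 13.2% of all genes were called for LatA in that strain. The share of all genes called without that array is not given here.

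Between the strains the 26 subunits showed no call. Under LatA, 23 of 26 were lower in *rpb1-12XS2ACTD*, with a median of -0.13, beside -0.05 over all genes, of which 38.1% were above 0. The lowest difference among them, -0.36 with an interval of -0.89 to 0.17, was that of *qcr1*, a core protein of the bc1 complex. RefSeq gives *qcr1* the synonym *mas1*, and the gene table describes it as a peptidase. It measured -0.28, 0.38 and -0.03 in *rpb1-12XS2ACTD* with LatA, and -0.14, 0.66 and 0.64 in *rpb1-12XCTD* with LatA, so the groups overlapped. With DMSO the subunits had a median of -0.03, beside 0.06 over all genes. On all arrays 16 of 26 were below 0 with DMSO, where 70.4% of all genes were above 0. Without DMSO replicate 1 of *rpb1-12XCTD* all 26 were below 0, at a median of -0.14. The median of all genes on that array was -0.16, the lowest of the 12, so its omission also lowers the strain difference of other genes. The share of all genes above 0 without it is not given here.

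All 26 subunits were among the 50 genes that correlated best with the median of the 26, each subunit's own value being left out of its median. Among other genes with a name, picked after their values were seen, the closest were *cyt1* (r = 0.974), *mic19* (0.949), *nde1* (0.949), *tim11* (0.939), *rip1* (0.929) and *cyc1* (0.928). *cyt1* and *rip1* encode cytochrome c1 and the iron-sulphur protein of the bc1 complex, *cyc1* cytochrome c and *nde1* a single-protein NADH dehydrogenase. Probe sets with no gene name, with r of 0.979, 0.961 and 0.930, ranked among them. The correlations are over 12 arrays, and on each array these genes and the subunits were measured in the same extract.

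*atp8* and *atp9* encode membrane subunits of the ATP synthase, *atp9* the one that forms its rotating ring. They were the most variable of the 41 genes. *atp8* measured 0.61, -0.42 and 0.03 in *rpb1-12XS2ACTD* with LatA, against 3.30, 0.41 and -0.34 with DMSO. In *rpb1-12XCTD* it measured -0.60, -0.33 and -0.03 with LatA, against -0.82, 2.57 and 1.09 with DMSO. The DMSO arrays spanned over 3 log2 units in each strain, and LatA and DMSO groups overlapped in both.

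*atp9* measured -0.11, -0.62 and -0.42 in *rpb1-12XS2ACTD* with LatA, against 2.42, 0.93 and -0.79 with DMSO. In *rpb1-12XCTD* it measured 0.02, 0.01 and -0.01 with LatA, against -0.34, 1.68 and 1.49 with DMSO. DMSO arrays that were high or low for 1 gene were so for the other, with a correlation of 0.903 over the 12 arrays. Here too the LatA and DMSO groups overlapped in both strains.

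The LatA differences of *atp8* were -1.05 in *rpb1-12XS2ACTD* and -1.26 in *rpb1-12XCTD*, and those of *atp9* -1.24 and -0.94. Their standard errors were 0.92 for *atp8* and 0.69 for *atp9*, and the adjusted p from limma ran from 0.193 to 0.413. The intervals were -3.07 to 0.96 and -3.28 to 0.75 for *atp8*, and -2.75 to 0.28 and -2.45 to 0.58 for *atp9*, and all span 0. Without DMSO replicate 1 of *rpb1-12XS2ACTD* the LatA differences in that strain were 0.03 for *atp8* and -0.45 for *atp9*. Without DMSO replicate 3 of that strain *atp9* was called, at -2.06 (adjusted p from limma 0.0230).

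Leaving out the first DMSO array of both strains, an alternative chosen after seeing the data, called both genes in *rpb1-12XCTD* with LatA, *atp8* at -2.15 and *atp9* at -1.58. Without DMSO replicate 2 of that strain, its highest array for both genes, the LatA differences were -0.45 for *atp8* and -0.57 for *atp9*, with adjusted p from limma of 0.759 and 0.628. Leaving out the first DMSO arrays also called both lower in *rpb1-12XS2ACTD* than in *rpb1-12XCTD* with DMSO, at -1.79 and -1.52. The direction between the strains with DMSO was 0.18 for *atp8* and -0.09 for *atp9* on all arrays.

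The 9 assembly factors, whose roles are mostly known from budding yeast, had a median pairwise correlation of 0.088. *cox10*, the farnesyltransferase that makes the haem O precursor of haem A, measured 0.12, 0.08 and 0.06 in *rpb1-12XS2ACTD* with LatA, against -0.29, -0.31 and -0.35 with DMSO. Its LatA differences, 0.41 in *rpb1-12XS2ACTD* and 0.37 in *rpb1-12XCTD*, had adjusted p from limma of 0.00900 and 0.0129, and the groups did not overlap in either strain. In *rpb1-12XS2ACTD* that adjusted p stayed at or under 0.0346 in every alternative run, and in *rpb1-12XCTD* it missed the threshold in 4 of 22: without LatA replicate 2 or 3, with the arrays of that strain fitted alone, and by the methods' test (0.158). *cox18*, which inserts Cox2 into the inner membrane, rose by 0.43 (0.0193) in *rpb1-12XCTD*, and its difference was 0.20 (0.230) in *rpb1-12XS2ACTD*; in *rpb1-12XCTD* it missed the threshold in the same 4 alternatives. All of these were under 1.5 fold.

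Some ATP synthase assembly factors ran the other way with LatA. *atp23*, a protease and chaperone of the membrane part, measured -0.03, 0.03 and -0.18 in *rpb1-12XS2ACTD* with LatA, against 0.30, 0.15 and 0.26 with DMSO. In *rpb1-12XCTD* it measured -0.21, -0.16 and -0.15 with LatA, against -0.14, 0.18 and 0.43 with DMSO. The groups did not overlap in either strain, and the differences, -0.29 and -0.33, had adjusted p from limma of 0.0842 and 0.0549. *atp25*, needed in budding yeast for *ATP9* messenger stability and assembly of the ring, had a difference of -0.32 in *rpb1-12XS2ACTD* (adjusted p from limma 0.0806) and -0.002 in *rpb1-12XCTD*. It measured -0.26, -0.19 and -0.24 in *rpb1-12XS2ACTD* with LatA, against 0.14, 0.19 and -0.04 with DMSO. In *rpb1-12XCTD* it measured -0.003, 0.003 and 0.01 with LatA, against -0.36, 0.18 and 0.21 with DMSO. The groups did not overlap in *rpb1-12XS2ACTD* and did in *rpb1-12XCTD*, and the interaction, -0.32, had an adjusted p from limma of 0.525.

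*atp11* and *atp10* lay at opposite ends of the strain comparison with DMSO. *atp11*, a chaperone of the F1 beta subunit, measured 0.33, 0.31 and 0.25 in *rpb1-12XS2ACTD* with LatA, against -0.13, -0.02 and 0.02 in *rpb1-12XCTD* with LatA. With DMSO it measured -0.11, 0.33 and 0.29 in *rpb1-12XS2ACTD*, against -0.19, -0.24 and -0.07 in *rpb1-12XCTD*. The strains did not overlap under LatA and did with DMSO, and the differences were 0.34 (adjusted p from limma 0.0930) and 0.33 (0.184).

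*atp10*, a chaperone of the membrane part, measured -0.16, -0.09 and -0.28 in *rpb1-12XS2ACTD* with LatA, against 0.05, 0.23 and 0.13 in *rpb1-12XCTD* with LatA. With DMSO it measured 0.23, -0.27 and -0.47 in *rpb1-12XS2ACTD*, against -0.05, 0.06 and 0.36 in *rpb1-12XCTD*. The differences were -0.31 under LatA and -0.30 with DMSO, with adjusted p from limma of 0.283 and 0.379, and the strains overlapped with DMSO only.

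Groups that did not overlap were counted over all 41 genes as well. With LatA, 15 members were higher and 2 lower on every array in *rpb1-12XS2ACTD*, where 27.7% and 29.1% of all genes were. In *rpb1-12XCTD* there were 9 higher and 1 lower, beside 32.3% and 10.6%. Between the strains, 2 members were higher and 3 lower in *rpb1-12XS2ACTD* under LatA (15.6% and 32.1% of all genes), and 1 was higher and 0 lower with DMSO (8.35% and 1.19%).

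Other genes of mitochondrial metabolism were listed by function. With LatA, 6.13% of all genes in *rpb1-12XS2ACTD* and 10.6% in *rpb1-12XCTD* were called higher. Of 12 TCA cycle genes, *idh1* and *idh2*, the subunits of NAD-dependent isocitrate dehydrogenase, were called higher with LatA in both strains. Their differences were 0.64 and 0.68 in *rpb1-12XS2ACTD* and 0.59 and 0.60 in *rpb1-12XCTD*, with adjusted p from limma of 0.00122, 0.00123, 0.00141 and 0.00185. Both genes were just over 1.5 fold in *rpb1-12XCTD*, where each call was lost in 6 of 22 alternatives. These were the omission of DMSO replicate 2 or of LatA replicate 2 or 3, median centring and quantile normalization, all with a change under 1.5 fold, and the methods' test, with adjusted p of 0.0842 for *idh1* and 0.0864 for *idh2*. The lowest differences were 0.46 for *idh1* and 0.47 for *idh2*. In *rpb1-12XS2ACTD* both calls held in all 22. Of 7 other electron transfer genes, *gut2*, the glycerol-3-phosphate dehydrogenase, was higher in *rpb1-12XS2ACTD* under LatA (1.19, adjusted p from limma 0.0192), where 1.39% of all genes were called higher. That call was lost without any 1 of the 6 LatA arrays, at differences of 1.15 to 1.25 and adjusted p from limma of up to 0.0768. With DMSO the strain difference of *gut2* was 0.56 (adjusted p from limma 0.259), and its interaction was 0.63 (0.483). *etr1*, listed with the electron transfer genes by its name but an enoyl reductase of mitochondrial fatty acid synthesis, was higher with LatA by 1.54 in *rpb1-12XS2ACTD* and 1.49 in *rpb1-12XCTD*, where the methods' test gave an adjusted p of 0.0700.

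Between the strains under LatA, 1.5% of all genes were called lower in *rpb1-12XS2ACTD*. Of 19 genes for mitochondrial gene expression, *rpo41*, the mitochondrial RNA polymerase, was called lower in *rpb1-12XS2ACTD* under LatA. It measured -0.42, -0.54 and -0.54 in *rpb1-12XS2ACTD* with LatA, against 0.17, 0.16 and 0.25 in *rpb1-12XCTD* with LatA. The groups did not overlap, and the difference was -0.69 (adjusted p from limma 0.00699). With DMSO the strain difference of *rpo41* was -0.31 (adjusted p from limma 0.206), and its interaction was -0.39 (0.426). Of the mitochondrial transcripts, *atp8* and *atp9* differed between the strains under LatA by 0.39 and -0.39, with intervals that spanned 0. The LatA groups of *atp8* overlapped. Those of *atp9* did not, *rpb1-12XS2ACTD* being lower, as 32.1% of all genes were. The interval of *atp9* rests on a spread shared by the 4 groups. Its SD was 0.26 in *rpb1-12XS2ACTD* and 0.02 in *rpb1-12XCTD* with LatA, against 1.61 and 1.12 with DMSO.

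The remaining lists held few calls. Over all genes, 6.13% were called higher and 5.37% lower with LatA in *rpb1-12XS2ACTD*, and 10.6% and 2.58% in *rpb1-12XCTD*. Between the strains under LatA, 1.39% were called higher and 1.5% lower in *rpb1-12XS2ACTD*. Of 51 mitochondrial ribosomal protein genes, *mrp10* was lower with LatA in *rpb1-12XS2ACTD* (-0.63), a call lost without its DMSO replicate 1 (-0.57) or LatA replicate 3 (-0.56, adjusted p from limma 0.0544). Of 35 import genes, *mas2*, a subunit of the presequence peptidase, was lower in *rpb1-12XS2ACTD* under LatA (-0.70). Its call was lost without any LatA array of *rpb1-12XCTD* or without LatA replicate 1 or 3 of *rpb1-12XS2ACTD*, with adjusted p from limma of up to 0.0903. *tim44* was lower (-0.62) and *sam50* higher (0.65) with LatA in *rpb1-12XS2ACTD*, and *tim44* was under 1.5 fold without DMSO replicate 3 (-0.58). *mgr3* was higher with LatA in *rpb1-12XCTD* (0.60), a call lost in 7 of 22 alternatives, with differences down to 0.47, among them without DMSO replicate 1 or LatA replicate 2 or 3. Of 16 genes of the CCAAT-binding Php complex and other regulators, *scr1*, a glucose repressor, was higher with LatA in *rpb1-12XCTD* (0.59), a call lost in 7 of 22 alternatives, with differences down to 0.45, among them without DMSO replicate 1 or LatA replicate 1. The 14 vacuolar ATPase genes and the 10 further assembly factors had 0 calls by limma in any comparison, with 0 and 1 of them at an unadjusted p under 0.05 and 1.5 fold (that 1 between the strains under LatA). At an adjusted p under 0.05 and any fold, 1 of the 10 was higher and 2 lower between the strains under LatA. That was beside 101 and 172 of all 4875 genes. They were *cbp6* (0.52, adjusted p from limma 0.0464), *cbp3* (-0.54, 0.0440) and *sco1* (-0.52, 0.0318). By that rule 1 of the 10 rose and 2 fell with LatA in *rpb1-12XS2ACTD* (17.4% and 16.0% of all genes), and 0 and 2 in *rpb1-12XCTD* (27.3% and 8.33%). *cox16*, which carries a cox symbol only in the current RefSeq list, was not called in any of the 5 comparisons.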

How the data were processed

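RNA from 12 cultures was hybridized to Affymetrix Yeast Genome 2.0 arrays. The authors normalized the CEL files by RMA in Genespring GX, and the deposited values are log2 with each probe set centred on its median over the 12 arrays, a step the sources used here do not describe. Centring leaves differences between groups as they are but removes levels. The array's genome build is not given in the sources used here, and RefSeq served for names only. All 4875 probe sets were fitted in limma 3.58.1 (R 4.3.3) with 4 group means (8 residual degrees of freedom), and p-values were adjusted by Benjamini-Hochberg over all of them. Intervals are unadjusted. Precision is limited by 3 arrays a group. Per-array values are given for members called, encoded by mitochondrial DNA, or most changed in a comparison, and for other members that passed the test or stood apart, chosen after values were seen. Members and lists were chosen with earlier results of these data known.

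In the 2 LatA groups, arrays with the same replicate number deviated together (correlations of deviations 0.342, 0.198 and 0.264). Arrays with different numbers were not compared, and the sources used here do not say what the numbers mark. Over all 18 same-numbered pairs they ran from -0.404 to 0.342, and 7 were over 0.1. Alternatives tried were median centring, quantile normalization, each array left out, compared groups alone, the methods' test, array weights, a replicate block, a trended robust prior, no fold threshold, and single-gene probe sets. Dropping the fold threshold kept the main fit, so it could not lose a call or change an adjusted p. In the main model, leaving out an array of a group not compared kept the difference and could change only its standard error and p. Scripts were tested on simulated data.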

Additional observations from a re-analysis of the deposited data

How the results depend on the processing

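The call of *cox17* between the strains under LatA held in all 23 alternatives, at log2 differences of 0.63 to 0.79 and adjusted p from limma or the methods' test of 1.30e-05 to 0.0461. The alternative with no fold threshold could not lose it, and leaving out a DMSO array kept the difference at 0.65. Members called with DMSO between strains numbered 2 without the first DMSO array of each strain, where 221 of all genes were called, against 42 on all arrays. In the interaction 1 was called after quantile normalization. For LatA in *rpb1-12XCTD*, 7 were called with no fold threshold, 2 without the first DMSO arrays, and 0 to 5 with each array left out in turn. Of all genes 13.2% were called there in the main fit, and with no fold threshold 27.3% rose and 8.33% fell. For LatA in *rpb1-12XS2ACTD*, 6 were called with no fold threshold and 0 to 1 with each array left out. Of all genes 11.5% were called there in the main fit, and with no fold threshold 17.4% rose and 16.0% fell. For the LatA effects, the shares of all genes called with arrays left out are not given here. Leaving out arrays gave 1 call between strains under LatA, and 0 with DMSO and in the interaction. The cause was not tested.

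With the replicate number as a block, 1 member was called between the strains under LatA and 0 in each other comparison. With the 2 LatA groups alone and that block, an alternative chosen after seeing the data, *cox17* was at 0.65 with an adjusted p from limma of 0.00223. The block changed no other call of a named gene.

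Over 16 alternatives the median change of the members ran from -0.17 to 0.09 between the strains with DMSO, -0.23 to -0.02 under LatA and -0.20 to 0.06 in the interaction. With LatA it ran from 0.10 to 0.21 in *rpb1-12XS2ACTD* and 0.07 to 0.36 in *rpb1-12XCTD*. Of 334 values for 15 results on single genes, 292 stayed past the threshold, 42 kept direction but lost it, and 0 reversed. Values with no fold threshold could not be lost, and those without an array of a group not compared could not reverse. The number of arrays limits what can be seen of changes below 1.5 fold.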
